A study of Homo sapiens with 2 samples.

Results

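The 8 genes described here encode 4 caspases (CASP2, CASP6, CASP8 and CASP9), the caspase-activating scaffold APAF1 and 3 inhibitors of apoptosis (XIAP, BIRC2 and BIRC3). They were taken by gene name from the 60623 named rows of a gene count table. The RNA-seq came from HCT116, an epithelial line derived from a human colon carcinoma, labelled WT in both cultures. The culture labelled siKAT7 received an siRNA against KAT7, a histone acetyltransferase also known as HBO1, and the culture labelled siControl received a non-specific siRNA. Both were transfected with the same lipid reagent. The comparison asks what lowering KAT7 does to transcription in these cells.

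Caspases are proteases that cut after aspartate and dismantle the cell during apoptosis. Initiator caspases are switched on by clustering, CASP8 at death receptors on the cell surface, CASP9 on the APAF1 apoptosome after cytochrome c leaves mitochondria, and CASP2 on the PIDDosome. Executioner caspases such as CASP6 then cut cellular proteins. The inhibitors of apoptosis XIAP, BIRC2 (cIAP1) and BIRC3 (cIAP2) carry BIR domains and a RING ubiquitin ligase domain. XIAP blocks caspases directly. BIRC2 and BIRC3 instead ubiquitinate proteins of the TNF receptor complex and restrain the kinase of the non-canonical NF-kB pathway.

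BIRC3 was 2.01-fold higher in siKAT7 than in siControl, and BIRC2 was 1.49-fold higher. CASP6 had a ratio of 1.32-fold, with an interval just above 0 on the log2 scale. CASP2 was at 87.6% of its siControl level. The intervals of CASP8, CASP9, APAF1 and XIAP included no difference. Each group had 1 library, so no spread between cultures is known and no difference has a test. The intervals throughout are exact 95% intervals of counting error only.

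The libraries held 23533186 expected counts in siKAT7 and 23450331 in siControl over the named genes. Levels are CPM, counts scaled to the library size after TMM correction of composition. KAT7 itself had 12.7 CPM in siKAT7 and 18.2 CPM in siControl, a log2 ratio of -0.52 (-0.74 to -0.31). In these libraries that is 69.6% of its siControl level. The difference was 1.44-fold, short of the 1.5-fold limit used below. It also lay inside the central 95% of the 3159 genes with 10 to 30 CPM (-0.54 to 0.51), of which 2.91% had a lower ratio. All 8 epithelial markers were measured, with summed levels of 13992 CPM in siKAT7 and 12939 CPM in siControl. Of 5 intestinal markers, CDX2 alone passed 1 CPM, at 17.2 CPM in siKAT7 and 13.9 CPM in siControl, while CDX1 was at 0 in both. The 6 blood cell markers summed to 2.51 CPM in siKAT7 and 1.19 CPM in siControl, and the 4 endothelial markers to 0.970 CPM in siKAT7 and 0.822 CPM in siControl, with PTPRC, PECAM1 and CDH5 at 0 in both. Of the 6 fibroblast markers, COL1A1 alone passed 1 CPM, at 31.1 CPM in siKAT7 and 31.2 CPM in siControl. The other 5 were below that minimum, with LUM at 0 in both. In bulk RNA, fewer cells with a transcript and less transcript per cell cannot be told apart.

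A gene was counted as higher or lower when it differed at least 1.5-fold, a log2 ratio of 0.58, and its interval excluded 0. Over the 13217 genes that averaged 1 CPM or more, 3.92% (518) were higher and 3.91% (517) were lower by this rule. Under total-count scaling the numbers were 355 higher and 843 lower. All 8 genes passed the CPM minimum, 1 of them (BIRC3) was higher and 0 were lower. Intervals excluded a log2 ratio of 0, whatever the size, for 4 of the 8 genes, against 45.0% of all genes, so that share lay near the background. The Poisson intervals of the levels in the libraries did not overlap for 2 of the 8 genes, against 31.4% of all genes, so this count too was no higher than the background. The median log2 ratio was 0.14 over the 8 genes and -0.0048 over all genes. Scaling to total counts moved all log2 ratios by a median of -0.11, which put the median of the 8 genes at 0.03.

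**Figure D1:**
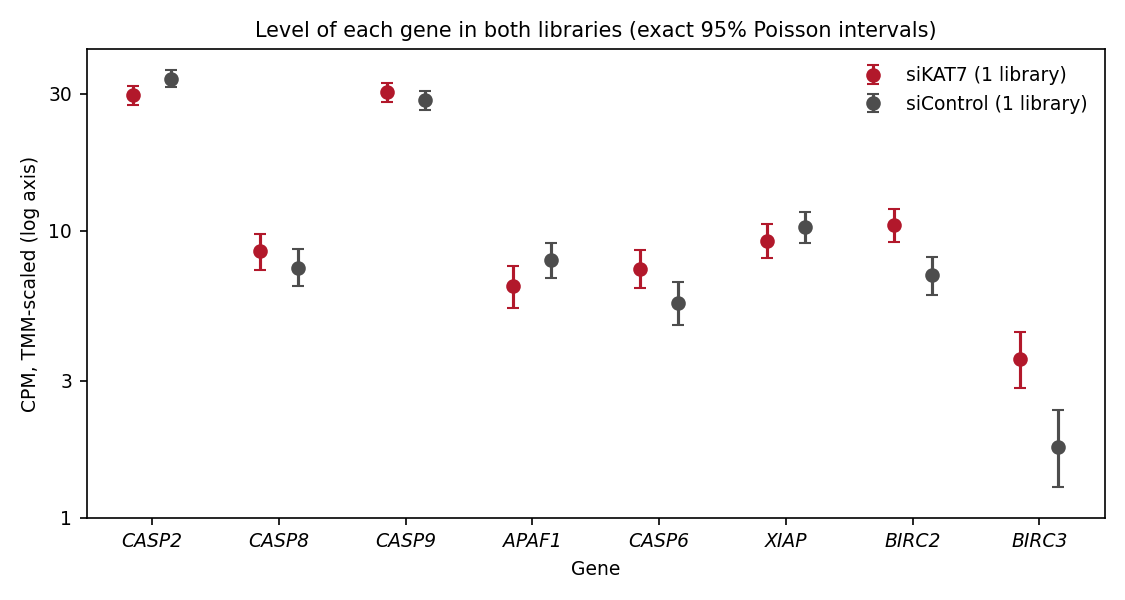
Level of each gene in CPM on a log axis, siKAT7 in red on the left and siControl in grey on the right, 1 library each, with exact 95% Poisson intervals as bars. The intervals are apart for BIRC2 (10.5 CPM in siKAT7 against 6.99 CPM in siControl) and BIRC3 (3.57 CPM in siKAT7 against 1.77 CPM in siControl) and overlap for the other 6 genes, against 31.4% of all genes with intervals apart.

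Among the inhibitors of apoptosis, BIRC3 passed the 1.5-fold rule, BIRC2 fell just short of it and XIAP had a log2 ratio below 0. BIRC3 had 81 expected counts in siKAT7 and 43 in siControl, or 3.57 CPM (2.84 to 4.44) in siKAT7 and 1.77 CPM (1.28 to 2.38) in siControl. Its log2 ratio was 1.01 (0.46 to 1.58). The Poisson intervals of the libraries did not overlap. BIRC3 was the lowest-counted of the 8 genes. Of the 2260 genes with 1 to 3 CPM, 11.7% were higher by the same rule, and 5.04% had a higher ratio than BIRC3. The central 95% of ratios in that class ran from -1.38 to 1.32, so BIRC3 lay inside the usual scatter of genes at its level. In the authors' deposited table the log2 fold of BIRC3 is 0.91. None of the 8 genes is marked as significant there, and neither is KAT7, with a log2 fold of -0.63. The missing mark thus does not set BIRC3 apart, nor does it mean that the authors' table found no difference.

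BIRC2 had 237 counts in siKAT7 and 170 in siControl, or 10.5 CPM (9.16 to 11.9) in siKAT7 and 6.99 CPM (5.97 to 8.12) in siControl. The log2 ratio was 0.58 (0.29 to 0.87), and the levels of the libraries lay apart by more than their counting intervals. Of the 3123 genes with 3 to 10 CPM, 4.67% had a higher ratio than BIRC2. XIAP had 209.45 expected counts in siKAT7 and 250.11 in siControl, or 9.22 CPM (8.01 to 10.6) in siKAT7 and 10.3 CPM (9.04 to 11.6) in siControl. These levels overlapped, and the log2 ratio was -0.16 (-0.43 to 0.11).

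Ratios between genes of the same libraries do not depend on how the libraries are scaled. The siKAT7 to siControl ratio of BIRC2 was 1.67 times that of XIAP (1.26 to 2.20), and that of BIRC3 was 2.25 times that of XIAP (1.46 to 3.49). BIRC3 and BIRC2 could not be told apart, with 1.35 times (0.873 to 2.11). XIAP thus made up less of the counts of these 3 genes in siKAT7, with 39.7% (35.5% to 44.0%, exact Clopper-Pearson), than in siControl, with 54.0% (49.3% to 58.6%). The share of BIRC3 was 15.4% (12.4% to 18.7%) in siKAT7 and 9.29% (6.80% to 12.3%) in siControl. That of BIRC2 was 45.0% (40.7% to 49.3%) in siKAT7 and 36.7% (32.3% to 41.3%) in siControl. Summed over BIRC2 and BIRC3 the counts were 318 in siKAT7 and 213 in siControl, a log2 ratio of 0.68 (0.43 to 0.94). With XIAP added, the summed log2 ratio was 0.29 (0.11 to 0.47).

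BIRC2 and BIRC3 are neighbours on chromosome 11 and share strand. In GENCODE 29 on GRCh38, BIRC3 (ENSG00000023445) spans chr11:102317450-102339403 and BIRC2 (ENSG00000110330) spans chr11:102347211-102378670, both on the forward strand and 7808 bases apart. The coding genes on either side had ratios near 0. YAP1, on the BIRC3 side, had a log2 ratio of -0.05 (-0.20 to 0.10), and TMEM123, on the BIRC2 side, had 0.04 (-0.07 to 0.15). XIAP (ENSG00000101966) lies on chromosome X at 123859724 to 123913979, also forward. It has annotated pseudogenes, of which XIAPP2 had 0 counts in siKAT7 and 3.01 in siControl. Adding XIAPP2 gave XIAP a log2 ratio of -0.17 (-0.44 to 0.10).

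Promoter sequences are shown for BIRC3 and BIRC2, the genes with the highest ratios, because their matches to stress-factor motifs differ. RefSeq on GRCh38.p14 lists 15 starts for the 8 genes, and 250 bases before each were searched on both strands. The motifs were the NF-kB consensus, the cyclic AMP response element TGACGTCA, the AP-1 site TGANTCA and the C/EBP-ATF site TGATGNAA. They were chosen with the results known, and no overlapping matches were found. The lines below run 5′ to 3′ on the forward strand, with matches in capitals. They cover chr11:102317234-102317483 for BIRC3 and, before the first of its 2 starts, chr11:102346964-102347213 for BIRC2.
BIRC3: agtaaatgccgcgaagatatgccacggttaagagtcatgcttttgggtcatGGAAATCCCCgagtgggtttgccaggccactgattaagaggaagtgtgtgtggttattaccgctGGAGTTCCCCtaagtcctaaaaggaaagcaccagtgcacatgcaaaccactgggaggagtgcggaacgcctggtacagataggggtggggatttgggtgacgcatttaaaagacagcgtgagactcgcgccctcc
BIRC2: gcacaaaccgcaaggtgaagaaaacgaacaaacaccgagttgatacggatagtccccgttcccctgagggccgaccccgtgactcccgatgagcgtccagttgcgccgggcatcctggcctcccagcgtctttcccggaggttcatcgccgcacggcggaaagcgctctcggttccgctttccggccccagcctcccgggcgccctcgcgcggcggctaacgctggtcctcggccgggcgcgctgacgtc

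The BIRC3 window held 2 matches to the NF-kB consensus, 199 to 190 bases and 135 to 126 bases before the start. At least 1 such match was present in 5.21% of all 35116 promoter windows, and at least 2 in 0.635%. The window of the first BIRC2 start held no match to any of the 4 motifs. The window of its second start held TGACGTCA at chr11:102347207-102347214, which the end of the printed stretch cuts off. That motif was present in 1.65% of all windows. Among the other 6 genes, a start of CASP8 had an AP-1 match (6.57% of all windows), and no C/EBP-ATF match (3.14% of all windows) was found. A match describes letters in the window and not binding. The BIRC3 window had 52.4% G and C, against 67.6% in the printed BIRC2 window and a median of 58.0% over all windows.

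**Figure D2:**
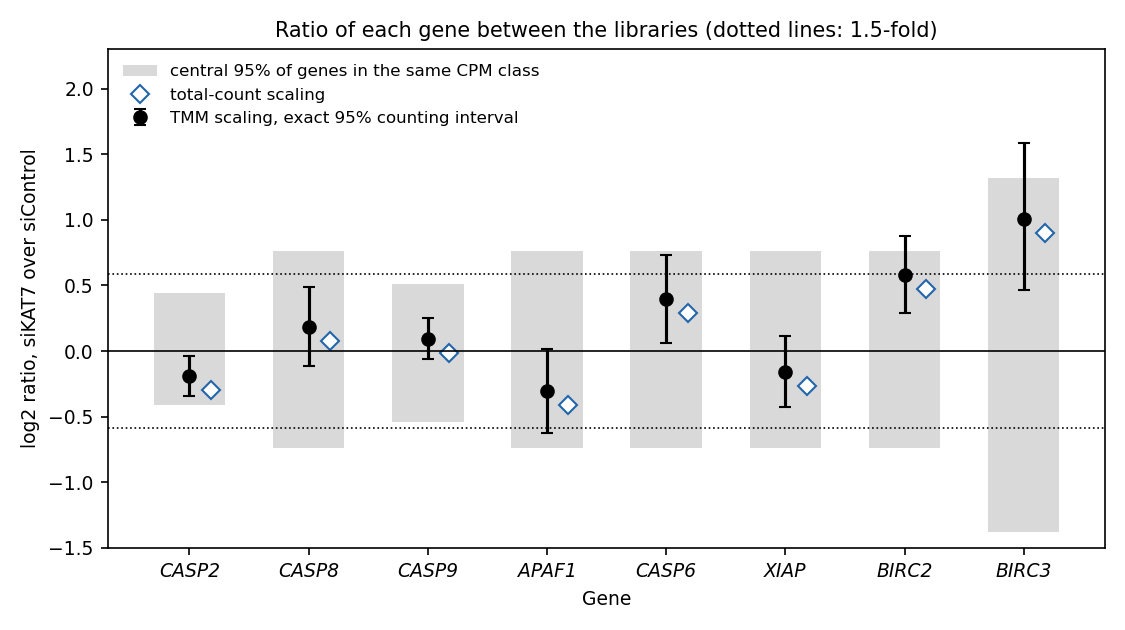
Log2 ratio of siKAT7 over siControl for each gene with its exact 95% counting interval (black), the value under total-count scaling (open diamonds) and the central 95% of all genes in the same CPM class (grey boxes). BIRC3 at 1.01 lies above the dotted 1.5-fold line and BIRC2 at 0.58 on it, and all 8 points lie inside their grey boxes.

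The initiator caspases differed little between the libraries. CASP2 had 672 counts in siKAT7 and 823 in siControl, or 29.6 CPM (27.4 to 32.0) in siKAT7 and 33.8 CPM (31.5 to 36.2) in siControl. Its log2 ratio was -0.19 (-0.34 to -0.04), and was below 0 under each scaling tried. The difference was small, and 18.1% of the 2917 genes with 30 to 100 CPM had a lower ratio. In the authors' deposited table the log2 fold of CASP2 is -0.30. CASP9 had 687 counts in siKAT7 and 691 in siControl, or 30.3 CPM (28.1 to 32.6) in siKAT7 and 28.4 CPM (26.3 to 30.6) in siControl. CASP8 had 191.99 expected counts in siKAT7 and 181.19 in siControl, or 8.47 CPM (7.31 to 9.75) in siKAT7 and 7.44 CPM (6.39 to 8.60) in siControl. Neither of these differed beyond counting error, with log2 ratios of 0.09 (-0.06 to 0.25) for CASP9 and 0.19 (-0.11 to 0.49) for CASP8, and CASP9 turned to -0.01 under total-count scaling.

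Relative to the other two initiators, CASP2 was lower beyond counting error. The ratio of CASP9 was 1.22 times that of CASP2 (1.05 to 1.41), and that of CASP8 was 1.30 times that of CASP2 (1.03 to 1.64). CASP8 and CASP9 could not be told apart, with 1.07 times (0.843 to 1.35). CASP2 thus held 43.3% (40.8% to 45.8%) of the counts of the 3 initiators in siKAT7 and 48.6% (46.1% to 51.0%) in siControl. Their summed counts of 1550.99 in siKAT7 and 1695.19 in siControl gave a log2 ratio of -0.03 (-0.13 to 0.07).

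APAF1, the apoptosome scaffold on which CASP9 is activated, had 145 counts in siKAT7 and 192.16 in siControl, or 6.39 CPM (5.40 to 7.52) in siKAT7 and 7.89 CPM (6.81 to 9.09) in siControl. The log2 ratio of -0.30 (-0.62 to 0.02) was the lowest of the 8 genes and its interval just reached 0. Under total-count scaling it was -0.41 (-0.73 to -0.09). The ratio of CASP9 was 1.32 times that of APAF1 (1.03 to 1.69), so their balance differed beyond counting error. IKBIP starts 28 bases from APAF1 on the opposite strand, and its log2 ratio was 0.48 (0.09 to 0.88). Both genes are read outward from that short stretch of chromosome 12.

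CASP6, the executioner caspase that cuts lamins, had 167 counts in siKAT7 and 136 in siControl, or 7.36 CPM (6.29 to 8.57) in siKAT7 and 5.59 CPM (4.69 to 6.61) in siControl. The log2 ratio was 0.40 (0.06 to 0.74), under the 1.5-fold limit, and the levels overlapped slightly. Under total-count scaling it was 0.29 (-0.04 to 0.63), which includes 0. The ratio of CASP6 was 1.47 times that of XIAP (1.09 to 1.99) and 1.62 times that of APAF1 (1.17 to 2.25). Of all genes measured, 9.62% had a higher ratio than CASP6.

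Over the 28 pairs among the 8 genes, the ratios of BIRC2 and BIRC3 each stood above those of CASP2, CASP9, APAF1 and XIAP, with intervals that excluded 1. The widest was BIRC3 against APAF1, at 2.49 times (1.59 to 3.93), and BIRC2 against APAF1 was 1.84 times (1.36 to 2.50). CASP6 could not be told apart from BIRC2 or BIRC3. These intervals are not adjusted for the number of pairs, and pairs of other genes were not compared, so they describe these genes and show nothing particular to them.

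The order of levels per gene model length was the same in both libraries. Scaled by the deposited gene length, CASP2 was the highest, at 7.25 CPM per kb in siKAT7 and 8.27 in siControl. CASP9 followed with 6.79 CPM per kb in siKAT7 and 6.36 in siControl, then CASP6 with 4.51 in siKAT7 and 3.42 in siControl, and CASP8 with 2.89 in siKAT7 and 2.54 in siControl. The mitochondrial and PIDDosome initiators were thus the most abundant caspase transcripts of the 4. BIRC2 had 2.57 CPM per kb in siKAT7 and 1.72 in siControl, APAF1 had 1.17 in siKAT7 and 1.45 in siControl, and XIAP had 1.07 in siKAT7 and 1.20 in siControl. BIRC3 was the lowest, at 0.843 CPM per kb in siKAT7 and 0.417 in siControl. The intervals of neighbours in that order overlapped in siKAT7 for CASP2 and CASP9, CASP8 and BIRC2, APAF1 and XIAP, and XIAP and BIRC3. In siControl they overlapped for CASP6 and CASP8, BIRC2 and APAF1, and APAF1 and XIAP. From the highest to the lowest gene the levels spanned 8.60-fold in siKAT7 and 19.8-fold in siControl.

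**Figure D3:**
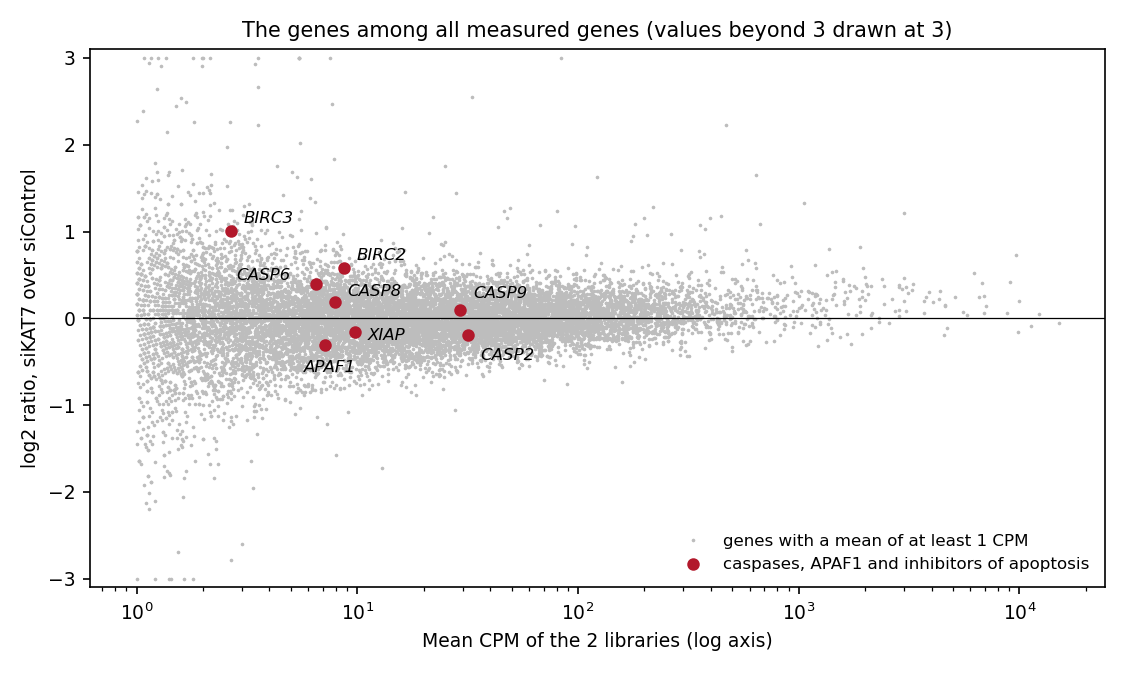
Log2 ratio of siKAT7 over siControl against mean CPM (log axis) for the 13217 genes that averaged 1 CPM or more (grey) and the 8 genes (red), with ratios beyond 3 drawn at 3. The scatter of all genes widens towards low CPM, where BIRC3 lies at 2.67 CPM.

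Positions and overlaps bear on how reads were assigned. CASP2 (ENSG00000106144) spans chr7:143288215-143307696 and APAF1 (ENSG00000120868) chr12:98645141-98735433, both forward. CASP8 (ENSG00000064012) spans chr2:201233443-201287711, forward, 4037 bases above its paralogue CASP10. CASP9 (ENSG00000132906) spans chr1:15490832-15526534 and CASP6 (ENSG00000138794) chr4:109688622-109703583, both on the reverse strand. CASP6 overlaps the end of MCUB on the other strand, and MCUB had 541 counts in siKAT7 and 619 in siControl. CASP9 likewise overlaps CELA2B, which had 12 counts in each library. APAF1 overlaps ANKS1B on the other strand, which was below the CPM minimum, with 0 counts in siKAT7 and 6.84 expected counts in siControl. Both genes had fewer counts in siKAT7 than in siControl, and the part of ANKS1B in the APAF1 value was not tested. No source used here gives the strand setting of the counting, so reads in these overlaps cannot be told apart. The ratio of MCUB was -0.09 (-0.26 to 0.08) on the log2 scale, and its part in the CASP6 value was not tested. CASP8, APAF1 and XIAP had expected counts that were not whole, so part of their reads were divided among gene models.

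Other caspase genes were at low levels. The initiator CASP10 had 39.68 expected counts in siKAT7 and 50 in siControl, with a log2 ratio of -0.22 (-0.86 to 0.41), so it was neither higher nor lower by the 1.5-fold rule. The inflammatory caspases CASP1 and CASP5, and CASP12 and CASP14, had 0 counts in both libraries. CASP4, below the CPM minimum, had 24 counts in siKAT7 and 14 in siControl.

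Of 5 other genes of the inhibitor family, BIRC5 and BIRC6 passed the CPM minimum and neither was higher or lower. BIRC5 (survivin), which also acts in chromosome segregation, had 335 CPM in siKAT7 and 351 CPM in siControl, a log2 ratio of -0.07 (-0.11 to -0.02). BIRC6, a giant ubiquitin-conjugating member, had 117 counts in siKAT7 and 139 in siControl, with -0.15 (-0.51 to 0.22). By the domain annotation in the count table, 7 genes carry a BIR domain and 5 of those passed the CPM minimum. BIRC3 was the only one of the 5 past the 1.5-fold rule, and their median log2 ratio was -0.07. The CARD domain is a death-fold interaction module that CASP2, CASP9, APAF1, BIRC2 and BIRC3 share. Of 29 genes annotated with it, 17 passed the CPM minimum, and BIRC3 was the only one past the rule. BIRC3 is in both domain lists, so this is the same call and not a further one. By that rule 3.92% of all genes were higher, and 11.7% of those with 1 to 3 CPM. The median of the 17 genes with a CARD domain was 0.09, or -0.01 under total-count scaling. Of 14 genes annotated with a caspase domain, 9 passed the minimum and 0 were higher or lower.

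Genes acting next to the apoptosome and the inhibitors stayed under the 1.5-fold limit. CYCS, which encodes cytochrome c, had 139 CPM in siKAT7 and 136 CPM in siControl, a log2 ratio of 0.03 (-0.04 to 0.10). DIABLO and HTRA2, mitochondrial proteins that displace caspases from inhibitors of apoptosis, had log2 ratios of 0.06 (-0.02 to 0.14) and 0.13 (0.02 to 0.23). XAF1, an antagonist of XIAP, had 0 counts in both libraries. Of the 4 antagonist genes 3 passed the CPM minimum, with a median of 0.13, or 0.02 under total-count scaling. The 3 apoptosome genes had a median of 0.03, or -0.08 under total-count scaling, and 0 of them passed the rule. In the PIDDosome, the platform of CASP2, PIDD1 had -0.08 (-0.22 to 0.05) and the adaptor CRADD had 0.05 (-0.17 to 0.28), so the median of this pair was -0.01, or -0.12 under total-count scaling.

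In the death receptor complex, the platform of CASP8, 14 of 16 genes passed the CPM minimum, 0 were higher and 1 was lower, against 3.91% lower over all genes. The gene that was lower was TNFRSF10C, a decoy receptor named after its values were seen, with 21.09 expected counts in siKAT7 and 52.99 in siControl. It averaged 1.55 CPM, and of the genes with 1 to 3 CPM 12.6% were lower by the same rule. Its log2 ratio of -1.21 lay inside the central 95% of that class (-1.38 to 1.32). The adaptor FADD had a log2 ratio of -0.07 (-0.22 to 0.07). CFLAR, a caspase-like protein without activity that controls CASP8 and lies in the same gene cluster, had 303.93 expected counts in siKAT7 and 279.04 in siControl, with 0.23 (-0.01 to 0.47). RIPK1, a kinase that BIRC2 and BIRC3 ubiquitinate, had 0.01 (-0.32 to 0.34). The list median was -0.01, or -0.11 under total-count scaling.

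In the ubiquitin complex of the TNF receptor, where BIRC2 and BIRC3 act, 18 of 19 genes passed the CPM minimum and 0 were higher or lower. Of all genes, 3.92% were higher and 3.91% lower. TRAF2, the adaptor that recruits both inhibitors, had 791 counts in siKAT7 and 848 in siControl, a log2 ratio of 0.00 (-0.14 to 0.14). MAP3K14 (NIK), the kinase they mark for degradation, had 0.08 (-0.07 to 0.23). The list median was 0.08 (12 of 18 above 0), or -0.03 under total-count scaling (7 of 18 above 0). Under TMM scaling, 6515 of all 13217 genes were above 0. Below the CPM minimum, TRAF1, a partner of TRAF2 named after its values were seen, had 23 counts in siKAT7 and 4 in siControl. Its log2 ratio was 2.48 (1.08 to 4.62), at a mean of 0.589 CPM. No share of genes at so low a level is given, so this ratio has no background beside it. Even at 1 to 3 CPM the central 95% of ratios ran from -1.38 to 1.32.

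Among 11 genes whose proteins caspases cut, all passed the CPM minimum, 0 were higher and 1 was lower by the 1.5-fold rule. GSDME, which caspase cleavage turns into a membrane pore, was lower, with 134 counts in siKAT7 and 220 in siControl, or 5.91 CPM in siKAT7 and 9.04 CPM in siControl. Its log2 ratio was -0.61 (-0.93 to -0.30), and of the genes with 3 to 10 CPM 5.54% were lower by the same rule. Over the 11 genes, 9 had log2 ratios below 0 and the median was -0.19, or -0.29 under total-count scaling. Of all 13217 genes, 6515 had log2 ratios above 0 and the median was -0.0048. Whether the 11 genes differ from all genes was not tested. Of the 9 inflammasome and pyroptosis genes 3 passed the minimum, with a median of 0.01 (-0.10 under total-count scaling), and 0 were higher or lower. Of the 3 necroptosis genes MLKL alone passed, with 32 counts in siKAT7, 22 in siControl and an interval that included 0, while RIPK3 was at 0 in both. Over the 80 genes of these lists, 60 passed the minimum, 0 were higher and 2 were lower. Of all 13217 genes, 3.92% were higher and 3.91% lower, so these counts show nothing particular to the lists. The median log2 ratio of the 60 genes was 0.00, or -0.10 under total-count scaling.

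**Figure D4:**
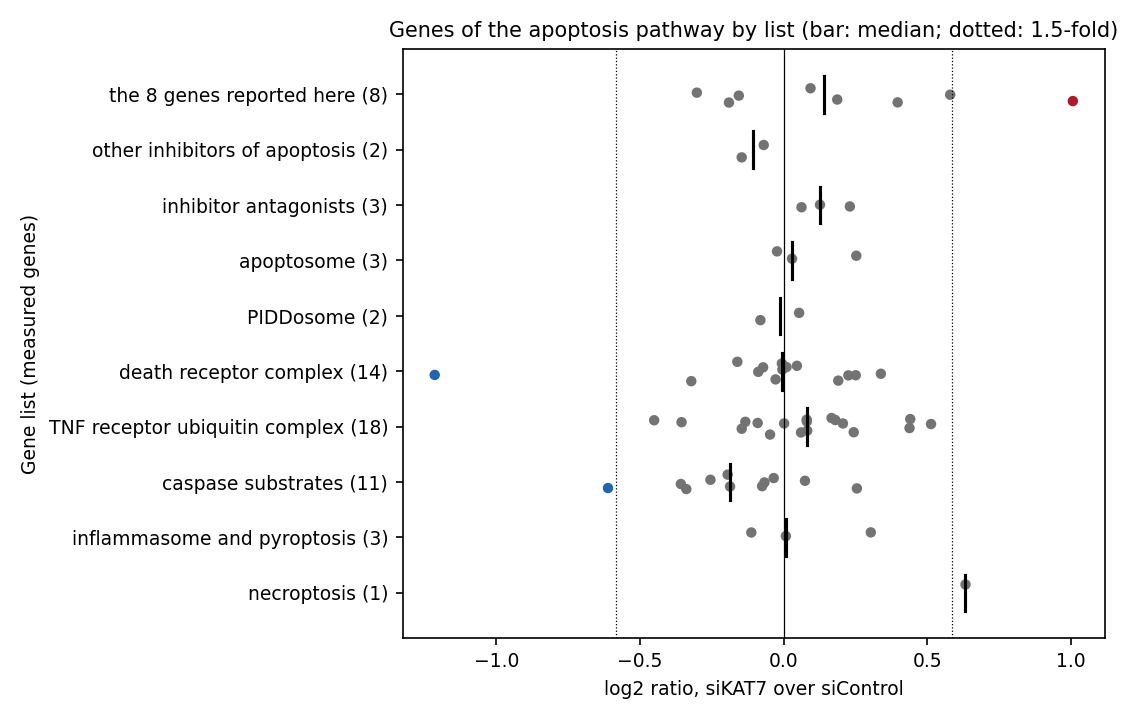
Log2 ratio of siKAT7 over siControl for the measured genes of each list shown (points, spread vertically for legibility), with the list median as a black bar and dotted lines at 1.5-fold. Red marks genes higher and blue marks genes lower by the 1.5-fold rule: BIRC3 (1.01) is the only red point, and GSDME (-0.61) and TNFRSF10C (-1.21) are the blue ones.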

How the data were processed

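Per the submitters' processing notes, RSEM 1.3.3 and GRCh38.p13 were used. The aligner, the annotation release and the strand setting were not given in sources used here. The deposited counts are expected counts per gene, with both columns repeated under the same names and 0 differing cells. A column named for HBO1, a synonym of KAT7, was read as siKAT7. Counts were rounded. The 331 unnamed rows, 1.67% of counts in siKAT7 and 1.11% in siControl, were left out. TMM factors of edgeR 4.0.16 (R 4.3.3) scaled the libraries (0.964 for siKAT7, 1.04 for siControl). Log2 ratios used a prior count of 0.5, with Clopper-Pearson intervals from the split of the counts (SciPy 1.17.1). The code was run on simulated Poisson counts. These follow the model that the intervals assume, so that run cannot show how the intervals hold for real libraries. With 1 library per group, no test was run. The intervals treat each count as independent and hold counting error only. PCR reads are not independent molecules, so the intervals may be too narrow even for that. Ratios of ratios are conditional odds ratios. The authors' deposited table gives the fold as a ratio, the log2 fold and p-values, raw and adjusted, which compare the libraries and not the conditions. No source used here names its tool. Lengths are the deposited gene lengths in bases, and places come from GENCODE 29.

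The genes and lists were chosen with earlier results of these data known. Genes named were the 8 genes, KAT7, their direct partners, neighbours, and list genes past the 1.5-fold rule with at least 100 counts over both libraries. Some list genes are not reported here.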

Additional observations from a re-analysis of the deposited data

How the results depend on the processing

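No paired analysis was possible because each group has 1 library, and for the same reason no library could be left out. The log2 ratios of all 8 genes stayed inside their main counting intervals under total-count scaling, DESeq2 1.42.0 size factors, a prior count of 5, library sizes over all rows, the authors' deposited log2 folds and unrounded counts, as did XIAP with XIAPP2 added. The last 2 alternatives were chosen after seeing the data. CASP9 changed sign under total-count scaling and in the authors' folds. The number of the 8 genes at least 1.5-fold higher was 1 except with a mean of at least 10 CPM (0, since 2 of the 8 genes were kept) and with the limit lowered to a log2 ratio of 0.32 (3, when 10.1% of all genes were higher), and 0 were lower under every alternative run. Over all genes, 518 were higher and 517 lower. Those numbers were 1008 and 985 without a CPM minimum, 109 and 60 at 10 CPM, 179 and 144 at 2-fold, and 1341 and 1436 with the lowered limit. Total-count scaling gave 355 higher and 843 lower, DESeq2 size factors 498 and 542, and a 99% interval 422 and 411. Depth limits BIRC3 most, with 124 counts over both libraries.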
